A study of Mus musculus with 6 samples.

Results

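The replication-dependent histone genes are described here in hematopoietic stem cells (HSC), which reside in bone marrow and renew the blood. They were taken as the probe sets annotated to 1 gene whose symbol is that of a clustered histone gene (H1f1 to H1f5, or H2ac, H2bc, H3c or H4c with a digit, formerly Hist1h to Hist4h). This gave 26 of the 28815 probe sets on the array, each for a different gene. There were 4 for linker histone H1, 4 for H2A, 9 for H2B, 3 for H3 and 6 for H4. The genes were chosen by name, but the set was proposed with earlier results of these arrays known, so the values below are a description of these 6 arrays.

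Total RNA of HSC was measured on 3 arrays from wild-type (WT) mice and 3 from Selp-/- mice, which lack P-selectin, an adhesion receptor of platelets and endothelium. The labels give C57BL/6 as the strain for both genotypes, number the arrays 1 to 3 within each, and name no treatment. The comparison asks which genes depend on P-selectin in HSC. The sources used here do not give the ages of the mice, the sort or whether animals were pooled. Since the labels do not call the arrays of 1 genotype separate mice, p-values rest on a spread between samples. That spread may be technical in part and need not be one between mice.

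Histones package DNA: H2A, H2B, H3 and H4 form the core of the nucleosome, and H1 binds the linker DNA between cores. A dividing cell must double its histones while it copies its genome, and the replication-dependent genes supply them, as clustered, intronless copies that are transcribed in S phase. Their mRNAs normally end in a conserved stem-loop in place of a poly(A) tail and are degraded when replication stops. Replication-independent variants, such as H1f10 and the H2A.Z genes, are polyadenylated and made throughout the cell cycle. Adult HSC are known to be mostly quiescent. The sources used here do not give whether the amplification primed from poly(A) tails or along the whole transcript, so a histone mRNA level here covers only what that step copied.

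The promoters of the linker genes are shown because H1f1 and H1f2 were called in opposite directions between array numbers, as given below. The sequences run from 250 bases before to 50 bases after the annotated start (RefSeq, GRCm38.p6). Capitals mark TATAAA (the TATA box), CCAAT (the CCAAT box), ATTTGCAT (the octamer read by Oct1) and AAACACA (the H1 box), searched on both strands, so that a match on the other strand shows as its reverse complement. The linker genes shown are H1f1 (chr13:23763418-23763717, plus strand), H1f2 (chr13:23738557-23738856, plus), H1f3 (chr13:23554782-23555081, plus) and H1f5 (chr13:21780576-21780875, minus).
H1f1: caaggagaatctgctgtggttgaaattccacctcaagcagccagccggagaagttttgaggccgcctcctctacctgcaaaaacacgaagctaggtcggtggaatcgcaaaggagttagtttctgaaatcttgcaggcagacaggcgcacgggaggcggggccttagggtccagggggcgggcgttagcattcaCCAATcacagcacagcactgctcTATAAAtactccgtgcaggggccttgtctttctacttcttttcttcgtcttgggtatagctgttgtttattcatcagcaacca
H1f2: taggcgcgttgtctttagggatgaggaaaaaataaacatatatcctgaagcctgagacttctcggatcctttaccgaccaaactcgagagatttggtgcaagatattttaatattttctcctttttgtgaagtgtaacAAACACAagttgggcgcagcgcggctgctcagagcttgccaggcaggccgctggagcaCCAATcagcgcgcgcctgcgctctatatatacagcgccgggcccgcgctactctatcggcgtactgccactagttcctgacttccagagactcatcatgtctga
H1f3: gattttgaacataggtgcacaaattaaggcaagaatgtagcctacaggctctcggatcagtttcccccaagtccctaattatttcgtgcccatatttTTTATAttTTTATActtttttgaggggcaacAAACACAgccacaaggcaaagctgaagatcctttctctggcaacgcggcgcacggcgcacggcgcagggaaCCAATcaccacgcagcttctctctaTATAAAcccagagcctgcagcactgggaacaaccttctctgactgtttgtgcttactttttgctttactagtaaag
H1f5: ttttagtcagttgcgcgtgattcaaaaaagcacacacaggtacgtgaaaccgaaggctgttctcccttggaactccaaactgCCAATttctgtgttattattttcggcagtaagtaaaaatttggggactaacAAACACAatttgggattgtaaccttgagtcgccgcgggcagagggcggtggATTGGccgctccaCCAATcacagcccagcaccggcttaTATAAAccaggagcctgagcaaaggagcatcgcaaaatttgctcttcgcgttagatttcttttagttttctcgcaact
All 4 windows held a CCAAT on the gene's own strand, beginning 56 bases before the start in H1f1, 54 in H1f2, 51 in H1f3 and 53 in H1f5. The letters AAACACA stood 112, 122 and 117 bases before the start in H1f2, H1f3 and H1f5, and had no match in the H1f1 window. TATAAA had a match on the gene's own strand in H1f1, H1f3 and H1f5, and none in H1f2. Only exact matches were marked, and variants of these letters were not searched, so a missing match does not show that the box is absent.

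The core histone genes shown are H2ac4 (chr13:23750838-23751137, plus), the member whose genotypes did not overlap, H2bc8 (chr13:23571150-23571449, plus), the one with the widest range over arrays, and H3c4 (chr13:23575513-23575812, plus), the only tested H3 member.
H2ac4: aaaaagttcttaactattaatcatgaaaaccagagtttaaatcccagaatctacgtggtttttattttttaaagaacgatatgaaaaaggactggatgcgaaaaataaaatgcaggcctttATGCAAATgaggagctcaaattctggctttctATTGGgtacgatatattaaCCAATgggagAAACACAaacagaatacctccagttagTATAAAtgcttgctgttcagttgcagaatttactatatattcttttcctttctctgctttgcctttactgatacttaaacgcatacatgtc
H2bc8: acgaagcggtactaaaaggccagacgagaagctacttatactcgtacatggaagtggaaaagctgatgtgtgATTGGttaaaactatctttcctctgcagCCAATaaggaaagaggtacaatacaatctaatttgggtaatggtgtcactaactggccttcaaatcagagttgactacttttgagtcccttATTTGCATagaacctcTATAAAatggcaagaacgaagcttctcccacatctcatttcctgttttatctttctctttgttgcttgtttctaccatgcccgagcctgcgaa
H3c4: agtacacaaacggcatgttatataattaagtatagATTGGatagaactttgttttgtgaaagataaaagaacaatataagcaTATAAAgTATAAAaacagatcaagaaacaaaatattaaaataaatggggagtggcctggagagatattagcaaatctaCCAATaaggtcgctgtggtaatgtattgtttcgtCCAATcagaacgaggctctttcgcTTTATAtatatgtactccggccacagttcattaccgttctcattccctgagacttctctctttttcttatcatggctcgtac
In the H2ac4 and H2bc8 windows the octamer stands 129 and 59 bases before the start, on the opposite strand in H2ac4 and on the gene's own in H2bc8. The H3c4 window holds CCAAT 90 and 56 bases before the start.

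A window was at hand for 22 of the 26 genes. CCAAT was found in 19 of these (86.4%, against 37.4% of all 32851 windows of the same length) and TATAAA in 15 (68.2%, against 13.6%). The octamer was found in 8 (36.4%, against 1.74%), namely 3 of 4 H2A and 5 of 7 H2B windows and none of the H1, H3 or H4 windows. AAACACA was found in 7 (31.8%, against 7.18%), 3 of them H1, 2 H2A and 2 H2B. The windows of the divergent neighbours H2ac8 and H2bc8 overlap, as do those of H2ac1 and H2bc1, so these matches are not independent. Matches were counted on either strand and at any position. The TATAAA of H2ac15 began at position 22 after the start, and that of H4c6 began 250 bases before it. A match is a description of letters and not of a TATA box in its usual place or of binding.

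Levels are log2 intensities after background correction and quantile normalization across the 6 arrays, and differences are differences of these log2 levels. Of the 26 genes, 20 passed the filter on low levels and were tested. The 6 that did not were H1f3, H2ac8, H2bc21, H2bc22, H3c7 and H3c15, whose levels lay between 6.46 and 8.99. The 20 tested genes spanned intensities from 399 to 20363, and their level ranged by a median of 0.69 over the 6 arrays, against 0.47 for all 17289 tested probe sets. The narrowest range was 0.27 for H4c4 and the widest 1.42 for H2bc8. The copies of a family are nearly identical in sequence, so a probe set named for 1 copy may also read others, and the gene-level values are uncertain to that extent.

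Median intensities of the 6 arrays ran from 563 in WT 2 to 751 in WT 3. The arrays numbered 3 stand apart in both genotypes. Hlf, which encodes a factor typical of HSC, had levels of 12.45, 12.37 and 8.88 in WT 1, 2 and 3 against 12.13, 12.53 and 8.81 in Selp-/- 1, 2 and 3, so a gene that defines HSC was low on both arrays numbered 3. Among marker lists, the 7 tested mast cell and basophil genes were all called higher in number 3 than in number 1, and the mean level of that list was 8.98 to 9.30 on the 4 arrays numbered 1 and 2 and 12.07 to 12.52 on those numbered 3. Other lineages also differed. Of 11 monocyte and macrophage genes 6 were called higher, of 13 neutrophil genes 6 higher and 1 lower, and of 8 megakaryocyte genes 2 higher. Of 7 erythroid genes 3 were called lower. The B lymphoid, T and NK lymphoid and stromal lists had at most 1 call in each direction. Of 17 tested HSC identity genes, 11 were called lower and 1 higher in number 3 than in number 1. Over all tested probe sets, 7% were called lower and 6.08% higher. Xist had an intensity of 398 in Selp-/- 3 and of 5010 to 10757 on the other 5 arrays. Results that rest on the arrays numbered 3 are therefore given by array, and the part of these other differences in them was not tested. In bulk RNA, fewer cells of a type and less RNA per cell cannot be told apart.

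**Figure D1:**
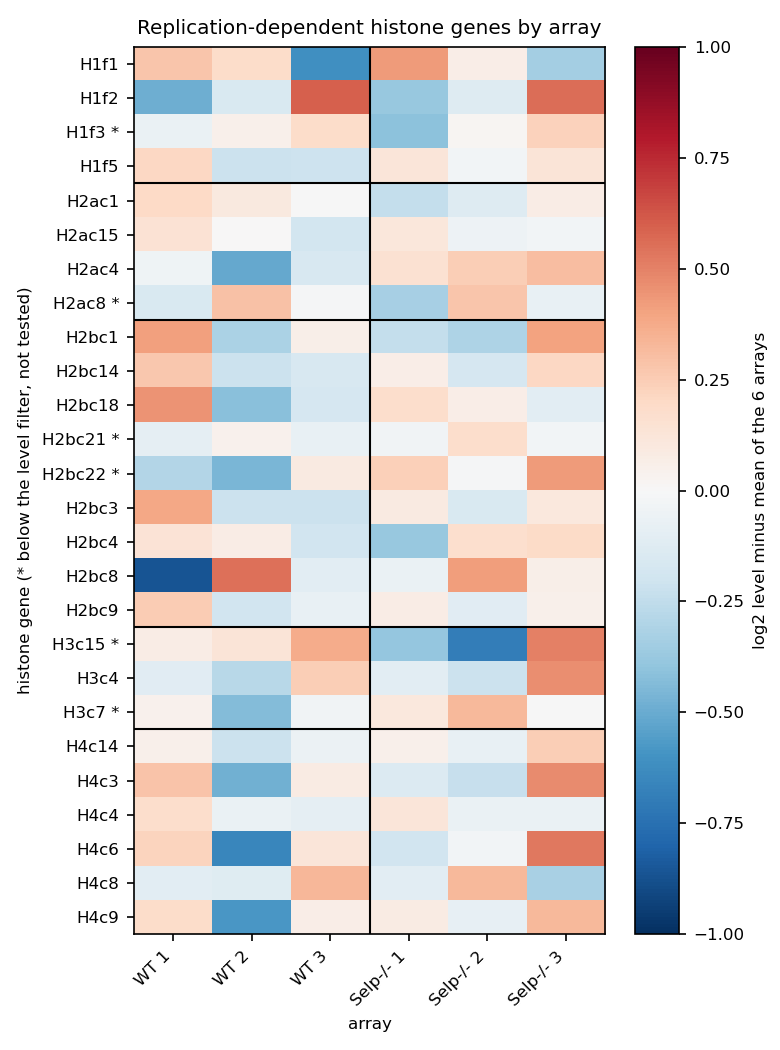
Each row is 1 of the 26 histone genes and each column 1 array, with colour giving the log2 level minus that gene's mean over the 6 arrays, and lines separating the H1, H2A, H2B, H3 and H4 families and the genotypes. H1f2 is high and H1f1 low on both arrays numbered 3, and 18 of the 20 tested genes are lower in WT 2 than in WT 1.

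The linker genes moved in opposite directions between array numbers. H1f2 rose and H1f1 fell in the arrays numbered 3, in both genotypes, while H1f5 was not called. H1f2, which encodes the linker subtype H1.2, measured 10.60, 10.94 and 11.69 in WT 1, 2 and 3, and 10.71, 10.96 and 11.65 in Selp-/- 1, 2 and 3. Both arrays numbered 3 lie above all 4 others, and the genotypes lie close together within each number. The fitted difference of number 3 from number 1 was 1.02 (SE 0.13, limma adjusted p = 0.00446), a 2.02-fold higher intensity, and that of number 3 from number 2 was 0.72 (SE 0.13, adjusted p = 0.0121). H1f1, which encodes the subtype H1.1, measured 12.20, 12.11 and 11.31 in WT 1, 2 and 3, and 12.35, 11.99 and 11.59 in Selp-/- 1, 2 and 3. Here both arrays numbered 3 lie below all 4 others. The fitted difference of number 3 from number 1 was -0.83 (SE 0.14, adjusted p = 0.0120), a 1.78-fold lower intensity, and that of number 3 from number 2 was -0.60 (SE 0.14, adjusted p = 0.0272).

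H1f5 measured 11.90, 11.48 and 11.49 in WT 1, 2 and 3, and 11.81, 11.67 and 11.82 in Selp-/- 1, 2 and 3, and its number 3 to number 1 difference was -0.20 (95% interval -0.54 to 0.13, adjusted p = 0.389). H1f3, below the filter and not tested, stood at 8.67, 8.79 and 8.92 in the WT arrays and at 8.33, 8.76 and 8.97 in the Selp-/- arrays in the same order. No probe set stood for H1f4 alone. The mean of the 3 tested linker genes was 11.57, 11.51 and 11.50 in WT and 11.63, 11.54 and 11.69 in Selp-/-, so the opposed shifts of H1f1 and H1f2 do not show in the family mean.

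The calls on H1f1 and H1f2 depended on single arrays in part. H1f2 kept its call against number 1 under all 12 alternatives run for it. Against number 2 its adjusted p was 0.0693 without WT 2, 0.0827 without WT 3 and 0.0572 without Selp-/- 2. H1f1 against number 1 had an adjusted p of 0.0768 without WT 3. Against number 2 it had 0.150 without WT 2 and 0.187 without WT 3, it was -0.39 (adjusted p = 0.122) when the intensities were only centred on their median, and -0.11 (adjusted p = 0.646) with no normalization, where the median of all tested probe sets was 0.31.

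**Figure D2:**
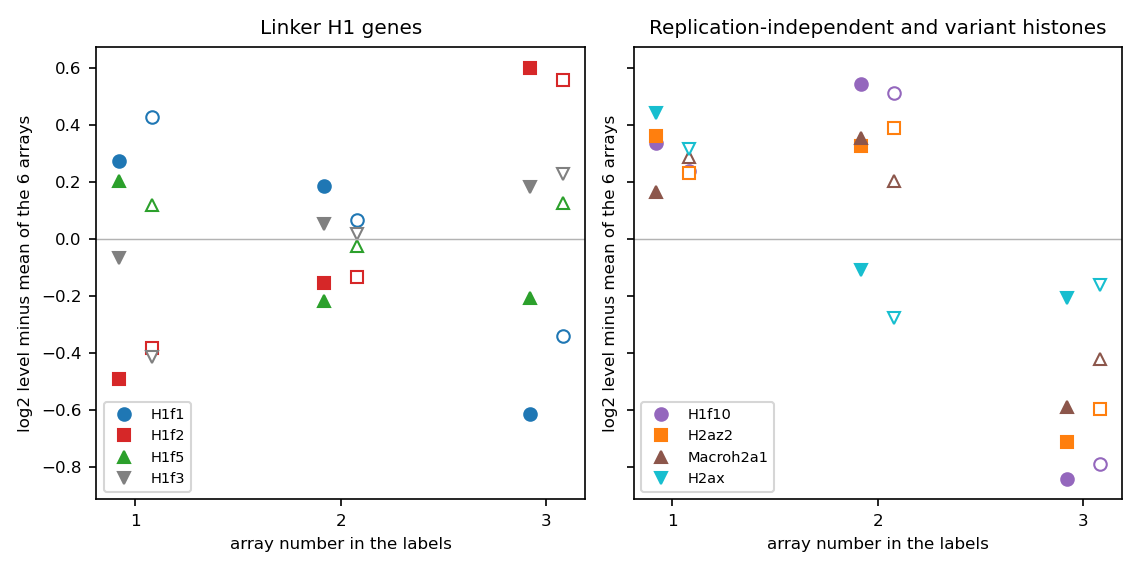
Log2 level minus the gene's mean over the 6 arrays (y axis) by array number (x axis), with filled symbols for WT and open symbols for Selp-/-, for linker H1 genes on the left and replication-independent or variant histones on the right. H1f1 and H1f2 part on the arrays numbered 3, where H1f10, H2az2 and Macroh2a1 are low in both genotypes.

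Among the H2A genes, H2ac4 was the only member of any family whose genotypes did not overlap. It measured 8.89, 8.43 and 8.78 in WT 1, 2 and 3, and 9.09, 9.18 and 9.25 in Selp-/- 1, 2 and 3, or 8.70 ± 0.24 (SD, n = 3) against 9.17 ± 0.080 (SD, n = 3). The filter level was 8.79, so its WT mean lay below the filter and its Selp-/- levels carried it into the test. The Selp-/- minus WT difference was 0.47 (SE 0.14, 95% interval 0.14 to 0.81), with a limma unadjusted p of 0.0129 and an adjusted p of 1, so it was not called. Within numbers 1, 2 and 3 it was 0.19, 0.75 and 0.47. With no overlap in either direction, 728 of the 17289 probe sets (4.21%) separate the genotypes in the same way, 387 of them (2.24%) with Selp-/- above and 341 (1.97%) with it below, so 1 histone gene of 20 is near that background.

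H2ac15 stood at 13.52, 13.38 and 13.19 in the WT arrays and at 13.49, 13.32 and 13.35 in the Selp-/- arrays, and the genotypes overlap. H2ac1, which encodes a testis form of H2A, stood at 10.81, 10.71 and 10.61 in the WT arrays and at 10.38, 10.48 and 10.69 in the Selp-/- arrays, with a difference of -0.20 (95% interval -0.53 to 0.13). The tested H2A mean was 10.93 ± 0.13 (SD, n = 3) in WT and 11.03 ± 0.059 (SD, n = 3) in Selp-/-, a difference of 0.10. Without the testis gene this difference was 0.25, and over the median in place of the mean it was -0.20, so 3 genes give the H2A family no settled direction. H2ac8, below the filter, lay between 6.46 and 7.09.

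Among the 7 tested H2B genes none was called for genotype or array number. H2bc8 had the widest range of all members, at 8.65, 10.07 and 9.41 in WT 1, 2 and 3 and 9.45, 9.94 and 9.57 in Selp-/- 1, 2 and 3. In each genotype it was highest on the array numbered 2, and its number 2 to number 1 difference was 0.95 (limma adjusted p = 0.376). By contrast, WT 2 was the lowest WT array for 12 of the 20 tested members, and Selp-/- 2 the lowest Selp-/- array for 10. H2bc18 stood at 10.60, 9.73 and 9.98 in the WT arrays and at 10.33, 10.22 and 10.04 in the Selp-/- arrays. H2bc3 stood at 12.22, 11.62 and 11.61 in the WT arrays and at 11.92, 11.68 and 11.94 in the Selp-/- arrays, so WT 1 was its highest array. The same held for H2bc9, at 12.19, 11.75 and 11.87 in WT and 12.01, 11.82 and 11.99 in Selp-/-, and for H2bc14, at 12.60, 12.11 and 12.16 in WT and 12.39, 12.15 and 12.53 in Selp-/-.

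H2bc1, which encodes the testis form of H2B, stood at 10.60, 9.87 and 10.25 in the WT arrays and at 9.95, 9.88 and 10.59 in the Selp-/- arrays. Its genotype difference ran from -0.65 in number 1 to 0.34 in number 3. H2bc4 ran from 10.19 to 10.76 over the 6 arrays, with its lowest level in Selp-/- 1. The 2 H2B genes below the filter, H2bc21 and H2bc22, lay between 7.98 and 8.89. The tested H2B mean was 10.91 ± 0.15 (SD, n = 3) in WT and 10.96 ± 0.091 (SD, n = 3) in Selp-/-, a difference of 0.050 that is smaller than either spread.

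Only 1 of the 3 H3 genes passed the filter. H3c4 measured 9.03, 8.87 and 9.39 in WT 1, 2 and 3, and 9.04, 8.93 and 9.61 in Selp-/- 1, 2 and 3, so both arrays numbered 3 lie above all 4 others. It rose in number 3 against number 2 by 0.60 (SE 0.12, limma adjusted p = 0.0195), and its difference from number 1 was 0.46 (SE 0.12, adjusted p = 0.0510). The first adjusted p was 0.0820 without WT 2, 0.0790 without Selp-/- 2 and 0.106 without Selp-/- 3. The second was 0.0444 with median centring and 0.0178 with no normalization. H3c15 stood at 8.56, 8.62 and 8.86 in the WT arrays and at 8.10, 7.80 and 8.99 in the Selp-/- arrays, and H3c7 lay between 6.55 and 7.31, both untested.

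All 6 H4 genes were tested and none was called. H4c4 had the narrowest range of the members, at 14.26, 14.02 and 13.99 in WT 1, 2 and 3 and 14.20, 14.01 and 14.01 in Selp-/- 1, 2 and 3, with a number 3 to number 1 difference of -0.23 (SE 0.063, limma adjusted p = 0.0600). H4c6 stood at 12.44, 11.56 and 12.34 in the WT arrays and at 12.02, 12.19 and 12.74 in the Selp-/- arrays. H4c3 stood at 11.39, 10.63 and 11.19 in the WT arrays and at 10.96, 10.87 and 11.58 in the Selp-/- arrays. In both, WT 2 was the lowest array and Selp-/- 3 the highest. The same was true of H4c9, at 9.83, 9.07 and 9.72 in WT and 9.73, 9.57 and 9.97 in Selp-/-. H4c14 stood at 13.10, 12.83 and 12.99 in the WT arrays and at 13.10, 12.97 and 13.29 in the Selp-/- arrays, with a genotype difference of 0.14 (95% interval -0.15 to 0.43). H4c8 ran from 8.96 to 9.62 and its highest arrays were WT 3 and Selp-/- 2.

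Across the members, no histone gene was called between the genotypes, and neither was any of the 17289 tested probe sets (0%). At an unadjusted p under 0.05, limma gave 1 histone gene, H2ac4, whose WT mean lay below the filter level, against 122 probe sets in all (0.706%). With array number as a block it was again H2ac4 alone, against 630 (3.64%), and no adjusted call appeared. The differences ran from -0.20 to 0.47 with a median of 0.068, against 0.0054 over all tested probe sets. They were above 0 in 15 of the 20 genes and below in 5, where 51.8% of all tested probe sets were above. The lowest limit of the 95% intervals of the 20 genes was -0.79, for H1f2, and the highest was 1.09, for H2bc8. In intervals as wide as those of these 2 genes, moderate differences were not detectable with 3 arrays per genotype. Others were narrower, such as -0.25 to 0.22 for H4c4 and -0.24 to 0.28 for H2ac15. For the 2 called linker genes the block narrowed the interval, to -0.16 to 0.37 for H1f1 and -0.21 to 0.27 for H1f2.

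The direction of the genotype difference was not the same from number to number. Selp-/- was above WT in 6 of the 20 tested genes in number 1, in 15 in number 2 and in 18 (90%) in number 3. Of all tested probe sets, 50.5%, 51.9% and 50.1% had Selp-/- above in numbers 1, 2 and 3. The median differences of the 20 genes were -0.096, 0.067 and 0.26. Among the 7 H2B genes the count went from 1 in number 1 to 6 in number 2 and 7 in number 3. Each number holds 1 array per genotype, so these differences between numbers were not tested.

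**Figure D3:**
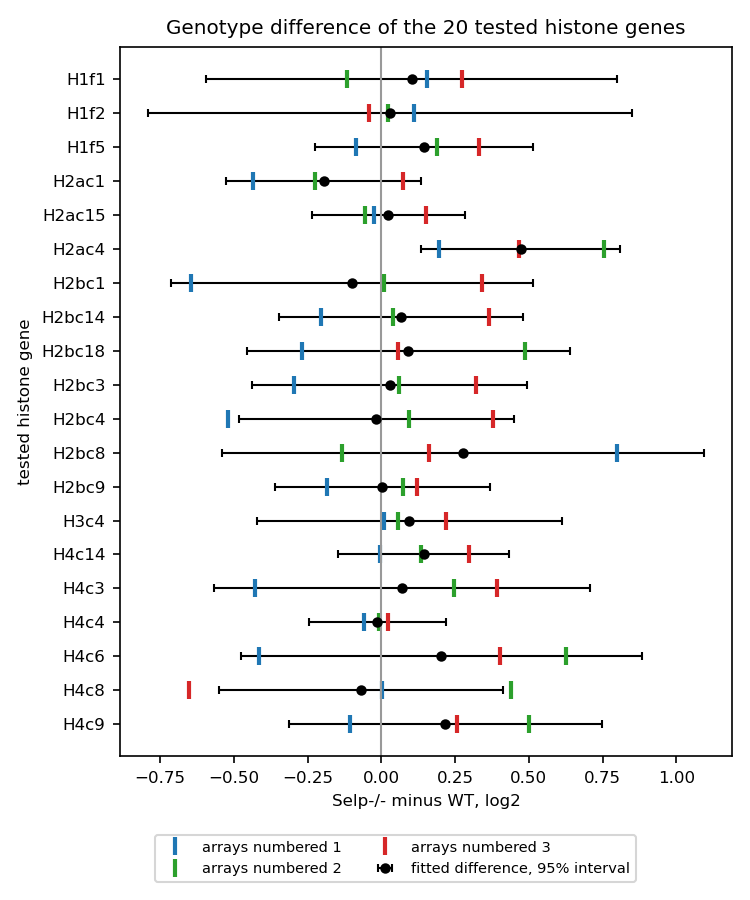
Selp-/- minus WT difference in log2 level (x axis) of each of the 20 tested genes (y axis), with black points and bars for the fitted difference and its 95% interval and coloured ticks for the difference within each array number. The interval of H2ac4, whose WT mean lies below the level filter, alone lies above 0. Ticks of number 1 lie mostly below those of number 3.

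By array number, 3 of the 20 tested genes (H1f1, H1f2 and H3c4) passed the limma F test over numbers, or 15%, against 2217 of 17289 probe sets (12.8%), so the histone genes are near the background. In number 3 against number 1, H1f2 rose and H1f1 fell, where 6.08% of all tested probe sets rose and 7% fell. In number 3 against number 2, H1f2 and H3c4 rose and H1f1 fell, where 7.8% rose and 9.48% fell. None was called between numbers 2 and 1, where 9 probe sets (0.0521%) were, 0.00578% higher and 0.0463% lower. At an unadjusted p under 0.05 the F test gave 7 of the 20 genes, against 30.8% of all tested probe sets. The count of 3 was 0 without WT 3 and 6 without Selp-/- 1. The count against number 2 was 0 without WT 2 and 7 without WT 1 or Selp-/- 1, and the count against number 1 was 1 without WT 3.

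In WT 3 against the mean of WT 1 and WT 2, 10 genes were higher and 10 lower, with a median difference of -0.043 (all tested probe sets, -0.016). In Selp-/- 3 against Selp-/- 1 and 2, 14 were higher and 6 lower, with a median of 0.19 (all, -0.016). A shift beyond 0.5 in size was seen in 2 genes (10%) in WT, against 20.8% of all probe sets, and in 6 (30%) in Selp-/-, against 16.2%.

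**Figure D4:**
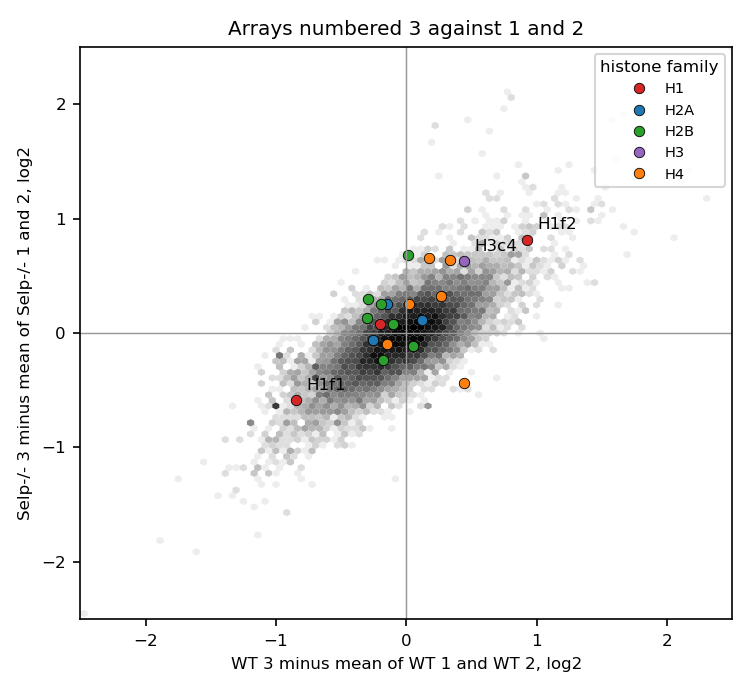
Log2 difference of array 3 from the mean of arrays 1 and 2, in WT (x axis) and in Selp-/- (y axis), for all 17289 tested probe sets (grey, darker where denser on a log scale) and the 20 tested histone genes (coloured by family). H1f2 and H3c4 lie high and H1f1 low in both genotypes, and 14 genes lie above 0 in Selp-/- against 10 in WT.

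A second pattern was a lower level on WT 2, with a weaker and less uniform one on Selp-/- 2. WT 2 was below WT 1 in 18 of the 20 tested genes (90%, against 48.0% of all tested probe sets), with a median difference of -0.34. Selp-/- 2 was below Selp-/- 1 in 13 (65%, against 47.8%), with a median of -0.11. The exceptions in WT were H1f2 and H2bc8. Relative to the median of all tested probe sets, the counts were 17 and 14 with median centring and 18 and 13 with quantile normalization and no background correction. No single gene of these passed the test between numbers 2 and 1. From Selp-/- 1 to Selp-/- 2 the tested H2A, H2B and H4 means did not fall (10.99 to 11.00, 10.89 to 10.92 and 11.53 to 11.54). The tested H1 and H3 means fell (11.63 to 11.54 and 9.04 to 8.93), as did the means of the shared probe sets described below.

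Cell cycle genes were mostly lower on both arrays numbered 2. Of 53 tested S phase genes, 46 were below in WT 2 and 48 in Selp-/- 2, with medians of -0.14 and -0.25. Of 42 tested G2 and mitosis genes, 37 and 39 were below, with medians of -0.21 and -0.46. The 13 tested neutrophil markers were also all lower in number 2 than in number 1 in both genotypes, with mean levels of 10.96, 9.36 and 11.81 in WT 1, 2 and 3 and 10.70, 9.40 and 11.54 in Selp-/-, and 3 of them were called between numbers 2 and 1. The erythroid markers had means of 10.89, 10.01 and 9.61 in WT and 10.96, 9.99 and 9.52 in Selp-/-, with 2 of 7 called between numbers 2 and 1. The part of these markers in the histone levels was not tested.

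Most replication-dependent copies share their probe sets. There were 27 probe sets annotated to several genes of which at least 1 was such a histone gene, and 23 of these named 1 family throughout (7 for H2B, 10 for H3 and 6 for H4, of which 5 were tested). Of these, 6 formed 3 pairs with identical deposited values, 1 pair per family, and the pairs do not count as separate measurements. Their intensities were high, at 8033 to 20156 among those tested, where the highest on the 6 arrays was 29314 to 33557.

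The family-wide H3 probe sets averaged 14.14, 13.78 and 14.11 in WT 1, 2 and 3 and 14.22, 14.18 and 14.13 in Selp-/- 1, 2 and 3. All 10 were lowest in WT 2 among the WT arrays, while the Selp-/- arrays lay between 14.13 and 14.22. The genotype difference of 0.16 was below the WT spread (SD 0.20, n = 3) and lay mostly in number 2, at 0.40, against 0.075 in number 1 and 0.017 in number 3. In number 3, H3c4 was 0.53 above the mean of numbers 1 and 2, and the shared H3 probe sets were 0.038 above it.

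The family-wide H4 probe sets averaged 14.10, 13.78 and 13.97 in WT and 14.13, 13.98 and 14.10 in Selp-/-, and all 5 were lowest in number 2 in both genotypes. The 6 single H4 genes averaged 11.70, 11.21 and 11.64 in WT and 11.53, 11.54 and 11.76 in Selp-/-, with a genotype difference of 0.092 against an SD of 0.27 in WT and 0.13 in Selp-/- (n = 3 each). The family-wide H2B probe sets averaged 13.82, 13.54 and 13.57 in WT and 13.74, 13.57 and 13.69 in Selp-/-, with a genotype difference of 0.025. All 7 were below number 1 on the arrays numbered 2 in both genotypes. Over the 5 families of single genes the genotype difference ran from 0.050 to 0.10. It was below the WT spread in H2A, H2B, H3 and H4. In H1 it was 0.093, against SDs of 0.037 in WT and 0.073 in Selp-/-, and the arrays of the genotypes overlapped. With 3 arrays against 3 an exact permutation test could not have gone below 0.10, and none was run.

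**Figure D5:**
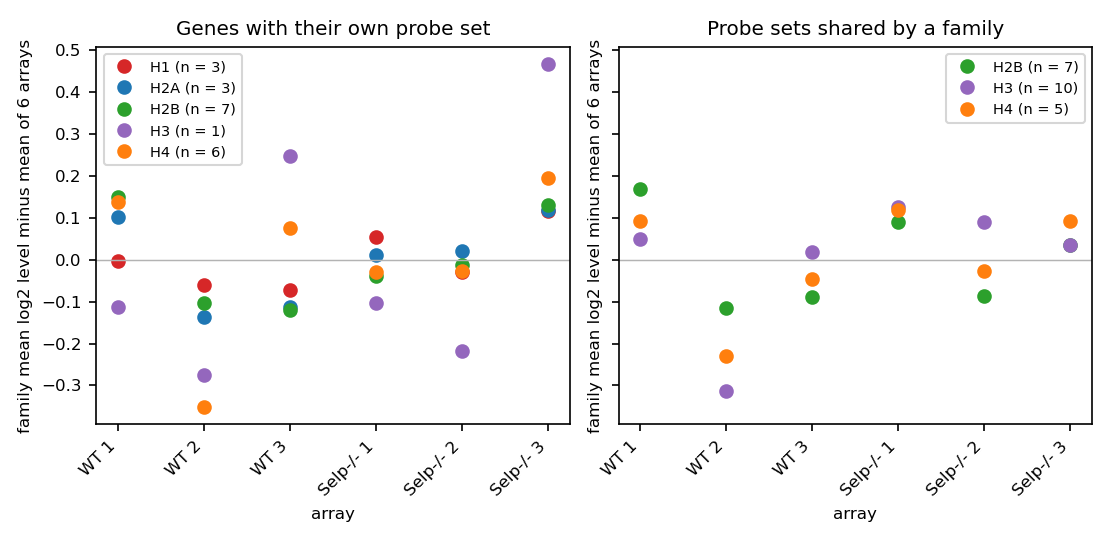
Mean log2 level of each histone family minus its mean over the 6 arrays (y axis) by array (x axis), for genes with their own probe set on the left and for probe sets shared by a family on the right, with n giving the probe sets averaged. WT 2 is the lowest array for H2A, H3 and H4 and for the shared H3, H4 and H2B probe sets, and WT 3 for H1 and H2B.

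Several replication-independent and variant histones fell in the arrays numbered 3. Of 10 tested, 4 passed the F test over numbers, against 1681 of all 12455 tested genes (13.5%), and no genotype call was made. Whether the 4 of 10 differ from that share or from the 3 of 20 replication-dependent genes was not tested. H1f10, a replication-independent linker histone, measured 11.04, 11.24 and 9.86 in WT 1, 2 and 3, and 10.94, 11.21 and 9.91 in Selp-/- 1, 2 and 3. It fell in number 3 against number 1 by 1.10 (SE 0.13, limma adjusted p = 0.00344). H2az2, an H2A.Z gene, stood at 11.37, 11.33 and 10.29 in the WT arrays and at 11.24, 11.40 and 10.41 in the Selp-/- arrays, and fell by 0.95 (SE 0.13, adjusted p = 0.00673). Macroh2a1, a large H2A variant of silent chromatin, stood at 13.12, 13.31 and 12.37 in the WT arrays and at 13.24, 13.16 and 12.54 in the Selp-/- arrays, and fell by 0.73 (SE 0.11, adjusted p = 0.00877). In these genes both arrays numbered 3 lie below all 4 others, as for H1f1. The fourth, H2ax, the variant phosphorylated at DNA breaks, was named after its values were seen. It stood at 12.20, 11.65 and 11.55 in the WT arrays and at 12.07, 11.48 and 11.59 in the Selp-/- arrays, and fell in number 3 against number 1 by 0.56 (SE 0.12, adjusted p = 0.0301), with number 2 as low as number 3. The other H2A.Z gene, H2az1, also named after its values were seen, did not fall. It stood at 12.03, 12.05 and 12.04 in the WT arrays and at 12.16, 11.99 and 12.35 in the Selp-/- arrays. Its number 3 to number 1 difference was 0.099 (SE 0.13, limma adjusted p = 0.649). Hils1, a spermatid linker histone, had the smallest genotype p of the list, with a difference of 0.13 (SE 0.12, adjusted p = 1). The 4 calls were 1 without WT 3.

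Few genes that act around histone supply were called over numbers, and among all tested genes 1681 of 12455 (13.5%) passed. Of 34 tested genes of histone mRNA transcription and 3' end processing, 2 passed the F test, and 4 were called lower and none higher in number 3 than in number 1. Nfya, a subunit of the CCAAT-binding factor, measured 11.74, 12.11 and 11.15 in WT 1, 2 and 3, and 11.89, 11.90 and 11.23 in Selp-/- 1, 2 and 3, and fell by 0.63 (SE 0.14, limma adjusted p = 0.0304). Of 28 tested chaperones and acetylation factors of new histones, 3 passed. Atrx, which deposits H3.3 with its partner Daxx, fell in number 3 against number 1 by 0.72 (SE 0.13, adjusted p = 0.0167). Asf1b, an H3-H4 chaperone of dividing cells, stood at 11.11, 10.77 and 11.39 in the WT arrays and at 11.24, 10.86 and 11.43 in the Selp-/- arrays, and rose in number 3 against number 2 by 0.60 (SE 0.12, adjusted p = 0.0210). Rbbp7, which binds H4 in several chromatin complexes, had the smallest genotype p of that list, with a difference of 0.63 (SE 0.12, adjusted p = 1).

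Of the 53 tested S phase genes, 8 passed the F test, with 4 lower and none higher in number 3 than in number 1, and 5 higher and 1 lower in number 3 than in number 2. Ccne1, the cyclin that starts S phase, measured 10.51, 9.66 and 10.45 in WT 1, 2 and 3, and 10.55, 9.51 and 10.28 in Selp-/- 1, 2 and 3, and was 0.77 higher in number 3 than in number 2 (SE 0.13, limma adjusted p = 0.00967). Both arrays numbered 2 were its lowest. Pole, the catalytic subunit of a replicative DNA polymerase, fell in number 3 against number 1 by 0.83 (SE 0.15, adjusted p = 0.0160), in the direction of H1f1 and not of H1f2. Of 42 tested G2 and mitosis genes, 3 passed, and Plk1, a mitotic kinase, was 0.73 higher in number 3 than in number 2 (SE 0.15, adjusted p = 0.0189). Mki67, the proliferation marker, fell in number 3 against number 1 by 0.68 (SE 0.14, adjusted p = 0.0242). With each array left out in turn, 2 to 5 S phase genes and 0 to 3 G2 and mitosis genes passed, and 0 to 1 in each of the mRNA processing and chaperone lists.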

How the data were processed

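RNA of 6 samples was measured on an Affymetrix whole-transcript mouse array. The authors deposited linear probe set intensity values, with MAS5 named, without a version, per the submitters' processing notes; whether a scale factor was applied is unknown. Using limma 3.58.1 under R 4.3.3, intensities were background corrected (normexp, offset 50), log2 transformed and quantile normalized. Probe sets below the 40th percentile of mean level (8.79) were left out, which left 17289. Genotype was fitted without a block, and array number with genotype, by lmFit and eBayes (two-sided, with a trend of variance on level). P-values were adjusted by Benjamini-Hochberg over all tested probe sets, with a threshold of 0.05.

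Same-numbered arrays deviated together from their genotype means (correlations of 0.428, 0.526 and 0.814 for numbers 1, 2 and 3). Deviations within a genotype cancel, so the shared shift of number 3 also enters the correlations of numbers 1 and 2. Correlations between unlike numbers were not computed, so a pairing of the samples by number is not shown. Symbols came from the platform annotation, updated through RefSeq (GRCm38.p6): 21780 probe sets had 1 symbol, 1605 several and 5430 none, and 21689 of the first matched RefSeq. The rule for members was applied to current symbols. Genes were named by smallest unadjusted p, up to 4 per histone family for number and 3 for genotype, and up to 3 and 1 for each gene list. The members and lists were chosen with earlier results of these data known. The fitting steps were tested on simulated data. Alternatives covered background correction, scaling, the level filter, the block, each array left out and the probe sets averaged. No probe set carried the name Selp, so its level was not analysed here. The number of arrays limits the precision.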

Additional observations from a re-analysis of the deposited data

How the results depend on the processing

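No histone gene and no pathway gene was called between the genotypes under any alternative, with the replicate block included (count 0), and the block changed no call. The single-gene differences followed, those of H1f1, H1f2 and H3c4 by number and of H2ac4 by genotype, kept their sign under every alternative. Family means were not tested, and some of them changed sign, as given below. With no normalization, the median of all tested probe sets moved by 0.11 for genotype, -0.22 for number 2 minus 1 and 0.31 for number 3 minus 2, and 34.1% of probe sets passed the F test. The member counts then were 16 for number in place of 3, 14 for number 2 against 1 in place of 0, 4 for 3 against 1 in place of 2 and 12 for 3 against 2 in place of 3. List counts for number were then 24 for S phase, 33 for G2 and mitosis, 7 for histone mRNA processing and 11 for chaperones. Median centring gave 7 for G2 and mitosis and 1 for mRNA processing. With no filter the counts were 4 for S phase, 1 for G2 and mitosis and 1 for mRNA processing, and with a filter at the 60th percentile 5 for G2 and mitosis.

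Leaving out each array in turn gave 0 to 6 members for number, 0 to 1 for number 2 against 1, 1 to 3 for 3 against 1 and 0 to 7 for 3 against 2. The lists gave 2 to 5 for S phase, 0 to 3 for G2 and mitosis, 0 to 1 for mRNA processing, 0 to 1 for chaperones, 1 to 3 for variant histones and 10 to 14 for HSC identity (12 with all arrays). The H1 mean in number 3 against 1 and 2 ran from -0.063 to 0.13, that of H2A from -0.11 to 0.12, that of H2B from -0.12 to 0.13, that of H3 from 0.42 to 0.64 and that of H4 from 0.12 to 0.28. The genotype differences ran from 0.058 to 0.13 for H1, 0.057 to 0.18 for H2A, -0.0016 to 0.14 for H2B, -0.11 to 0.24 for H3 and -0.061 to 0.18 for H4.

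Family means with no normalization were 0.22 for the H1 genotype difference and, for number 3 against 1 and 2, 0.30 for H1, 0.20 for H2A, 0.24 for H2B, 0.64 for H3 and 0.39 for H4. The H2A genotype difference was -0.086 with the stricter filter, -0.20 as a median over probe sets and 0.25 without the testis gene. As medians, the number 3 values were -0.15 for H1 and 0.45 for H4. For H3 the number 3 value was 0.44 with quantile normalization and no background correction, 0.44 with median centring, 0.39 with no filter and 0.39 with the genes below the filter averaged in. The use of shared probe sets, chosen as an alternative after seeing the data, gave 0.038 for H3 and 0.034 for H4. The cause of these movements was not tested. The genes below the filter, with intensities of 142 to 683, are limited by signal over background.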

Other observations

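A few genes of these families meet the member rule only by an older symbol, and their values belong to none of the comparisons above. H4f16 measured 12.49, 11.81 and 12.00 in WT 1, 2 and 3, and 12.05, 12.08 and 12.22 in Selp-/- 1, 2 and 3. H2aw stood at 12.55, 12.09 and 12.36 in the WT arrays and at 12.38, 12.53 and 12.33 in the Selp-/- arrays. H2bu2 stood at 9.87, 9.05 and 9.43 in the WT arrays and at 9.29, 9.16 and 9.74 in the Selp-/- arrays. In these genes WT 2 is the lowest WT array, as for 12 of the 20 tested members (60%, against 30.8% of all tested probe sets). H1f6, a testis linker histone below the filter, lay between 8.17 and 8.56.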
